A study of Danio rerio with 16 samples.

Results

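The 9 genes described here move calcium between the cell's stores: the IP3 receptor genes itpr1b, itpr2 and itpr3, the pump genes atp2a2a and atp2a2b, the store operated entry genes stim1a and orai1b, and the mitochondrial uptake genes mcu and micu2. They were chosen by name, each matched 1 of the 32058 features of the deposited count table, and all 9 passed the filter on low counts that left 17799 genes to test. Livers were dissected from zebrafish larvae and RNA was sequenced in 16 libraries, 2 for each of 8 groups, with the livers of 30 larvae pooled in a library. At 6 dpf (days post fertilization) all larvae were fasted: wild type given ethanol, Tg(fabp10a:GCaMP6s) without ethanol, and wild type without ethanol. At 7 dpf all were wild type: a fed group titled ventral, a fed group and a fasted group. The 4 dpf and 5 dpf groups were wild type under the treatment labelled normal. Comparisons of 6 or 7 dpf groups with 4 or 5 dpf thus change age and label together, and these cannot be told apart. The ethanol dose, its duration, the length of fasting and the meaning of ventral were each not given in the sources used here. In the reporter line the hepatocyte promoter of fabp10a drives a calcium indicator that itself binds calcium. Because a library is a pool of dissected livers, fewer cells of a type and less RNA per cell cannot be told apart.

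IP3, made at the plasma membrane after hormones bind their receptors, opens IP3 receptors and lets calcium leave the endoplasmic reticulum (ER). SERCA pumps return that calcium to the ER, where folding chaperones bind it. When the ER runs low, STIM proteins in its membrane sense the loss and open ORAI channels in the plasma membrane, and the mitochondrial uniporter takes up calcium released close to it. In mammalian hepatocytes these waves follow glucagon, vasopressin and adrenaline and act on glucose output and bile secretion; ITPR2 is prominent in mammalian hepatocytes and ITPR3 in bile duct cells.

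Libraries held 18995692 to 28033476 counts. Summed CPM of 14 hepatocyte markers ran from 47492 to 139021 per library, so liver transcripts were abundant throughout. The EGFP feature, part of GCaMP6s, had 136106 and 43968 counts in the GCaMP libraries, 38 in each 6 dpf fasted wild type library and 0 in the other 12. Replicate 1 of 4 dpf stood apart in heart transcripts: 9 heart markers, chosen after seeing the data, summed to 408 CPM there, against 36.5 CPM in replicate 2 and 1.43 to 20.0 CPM in the other 14 libraries. Levels are CPM, a gene's counts over the TMM-scaled library size, given for replicate 1 and then 2. Differences are log2 fold changes ± standard error from edgeR's quasi-likelihood test with Benjamini-Hochberg adjustment over all 17799 genes. A gene is said to have risen or fallen at an adjusted p under 0.1 with at least a 2-fold difference. The labels do not say whether the pools came from separate clutches, so p-values measure only the spread between these libraries.

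**Figure D1:**
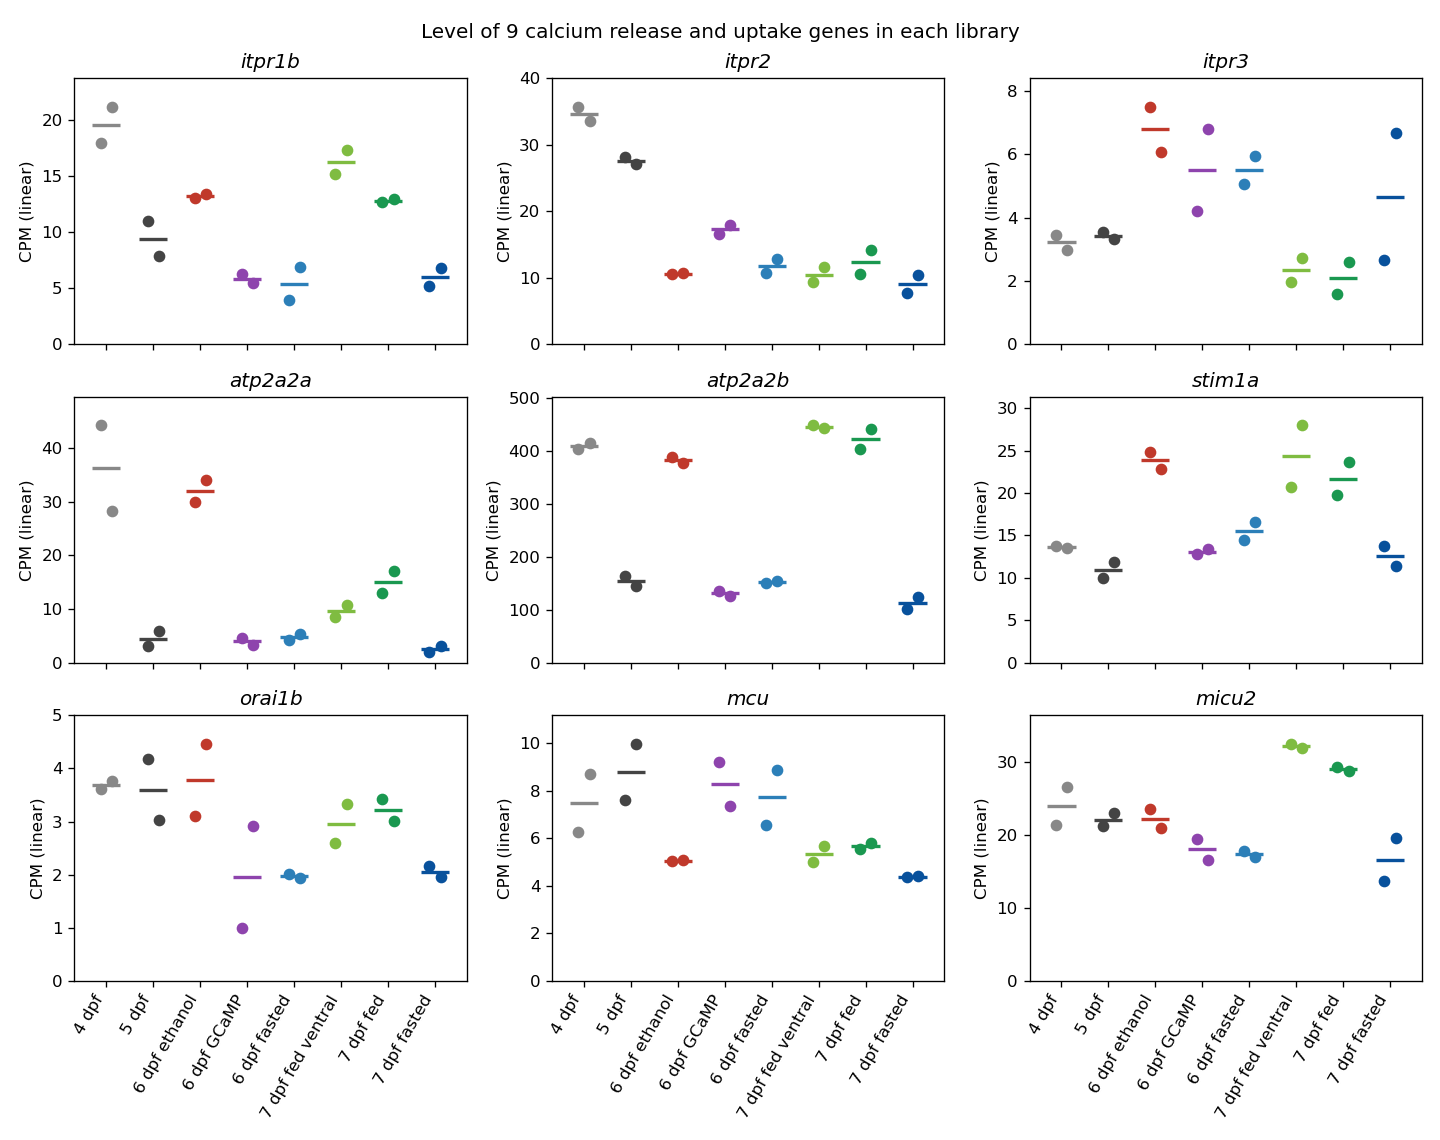
Level of each of the 9 genes (CPM, linear scale) in every library, with groups on the horizontal axis and the 2 libraries of a group as points. The atp2a2a points span the widest range of group means, 14.6-fold, and those of orai1b and micu2 the narrowest, 1.94-fold each.

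The 3 IP3 receptor genes followed different courses. The itpr1b gene (ENSDARG00000074149) had 18.02 and 21.2 CPM at 4 dpf, 11.0 and 7.84 CPM at 5 dpf, 3.90 and 6.85 CPM at 6 dpf fasted, and 5.23 and 6.77 CPM at 7 dpf fasted. It had 13.03 and 13.43 CPM in ethanol livers, against 3.90 and 6.85 CPM in 6 dpf fasted livers, a rise of 1.30 ± 0.23 (adjusted p = 0.000217). In fed livers it had 12.7 and 12.9 CPM, against 5.23 and 6.77 CPM in 7 dpf fasted livers, a rise of 1.097 ± 0.234 (adjusted p = 0.000629). Ethanol and fed livers thus stood above their fasted references with no overlap. The ventral livers, with 15.2 and 17.4 CPM, lay above the fed livers by 0.35 ± 0.22 (95% interval -0.12 to 0.82), which was not called. Ordered by mean, the 6 dpf fasted, GCaMP and 7 dpf fasted groups overlapped at the low end. The 4 dpf group stood highest. The ethanol rise shrank to 0.95 (adjusted p = 0.00793) without 6 dpf fasted replicate 1, and the fed rise to 0.92 (adjusted p = 0.0138) without 7 dpf fasted replicate 1, both short of 2-fold.

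The itpr2 gene (ENSDARG00000011909) had 35.7 and 33.5 CPM at 4 dpf, 28.1 and 27.1 CPM at 5 dpf, 10.7 and 12.8 CPM at 6 dpf fasted, and 7.66 and 10.5 CPM at 7 dpf fasted. It fell between 5 and 6 dpf, by 1.23 ± 0.18 on the log2 scale (adjusted p = 2.88e-05 for 6 dpf fasted against 5 dpf). Unlike itpr1b, it was not called in either the ethanol or the fed comparison; whether the 2 genes differ in response was not tested. Ethanol livers held 10.5 and 10.7 CPM of itpr2, against 10.7 and 12.8 CPM in 6 dpf fasted livers (-0.15 ± 0.18, 95% interval -0.52 to 0.23). Fed livers held 10.5 and 14.1 CPM, against 7.66 and 10.5 CPM in 7 dpf fasted livers (0.45 ± 0.18, adjusted p = 0.0466, under 2-fold). Against 5 dpf, fed livers had fallen by 1.16 ± 0.18 (adjusted p = 4.62e-05), a comparison that shares the 5 dpf libraries with the first; without fed replicate 1 the difference was -0.94, under 2-fold. GCaMP livers, at 16.60 and 17.99 CPM, lay above the 10.7 and 12.8 CPM of fasted wild type without overlap (0.56 ± 0.18, unadjusted p below 0.05 but adjusted p = 0.129).

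The itpr3 gene (ENSDARG00000061741) was scarce, between 1.58 and 7.49 CPM. It fell in fed livers, with 1.58 and 2.60 CPM, against 2.66 and 6.67 CPM in 7 dpf fasted livers (-1.13 ± 0.38, adjusted p = 0.0189). That call rested on single libraries: the difference was -0.33 (adjusted p = 0.540) without 7 dpf fasted replicate 2 and -0.79 (adjusted p = 0.183) without fed replicate 1. Of 8 biliary markers, all tested, 2 fell and 0 rose in that comparison, where 16.8% of all genes fell. Their summed level was 1060 to 1328 CPM in fed livers, against 3179 to 3303 CPM in 7 dpf fasted livers. Most of that gap was anxa4, at 437.5 and 339 CPM in fed livers, against 1861 and 1709 CPM. The cldnc gene was at 34.38 and 24.65 CPM, against 205.9 and 220.1 CPM. The epcam, krt18a.1 and cdh17 genes were also lower in fed livers without overlap. The sox9b gene overlapped, at 22.13 and 23.27 CPM, against 26.04 and 18.05 CPM, as did alcama and onecut1. These values were looked up after the sum was seen. The part of biliary cells in the itpr3 difference was not tested. Ethanol livers held 7.49 and 6.08 CPM, against 5.05 and 5.93 CPM in 6 dpf fasted livers (0.31 ± 0.35, 95% interval -0.44 to 1.05). In order of mean level the fed and ventral groups stood lowest, and from 4 dpf upwards each group overlapped its neighbour.

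By group means atp2a2a spanned the widest range of the 9 genes, 14.6-fold, followed by atp2a2b at 3.97-fold and itpr2 at 3.82-fold. The atp2a2a gene (ENSDARG00000029439), known in zebrafish as the main SERCA pump of the heart, had 44.3 and 28.3 CPM at 4 dpf and 3.07 and 5.89 CPM at 5 dpf. At 6 and 7 dpf fasted it had 4.27 and 5.42 CPM and then 1.90 and 3.08 CPM. Ethanol livers held 30.0 and 34.0 CPM, against 4.27 and 5.42 CPM in 6 dpf fasted livers. That is a 6.61-fold rise (2.72 ± 0.32, adjusted p = 1.02e-05), and ethanol livers overlapped 4 dpf in level. Fed livers held 12.9 and 17.2 CPM, against 1.90 and 3.08 CPM in 7 dpf fasted livers, a 6.09-fold rise (2.61 ± 0.34, adjusted p = 1.42e-05). Ventral livers held 8.55 and 10.7 CPM, below the fed livers without overlap but not called (-0.65 ± 0.30, adjusted p = 0.387).

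At 4 dpf replicate 1, the library richest in heart transcripts, held 44.3 CPM of atp2a2a, and replicate 2 held 28.3 CPM. The atrial natriuretic peptide gene nppa had 490 counts in replicate 1 and 0 in replicate 2. Another heart marker, myl7, had 69.1 CPM in replicate 1 and 31.7 CPM in replicate 2, against 18.45 and 11.3 CPM at 5 dpf. The part of heart transcripts in the 4 dpf level of atp2a2a was not tested. The fall at 5 dpf was -3.01 ± 0.32 (adjusted p = 6.86e-06) and without 4 dpf replicate 1 it was -2.67 (adjusted p = 2.14e-05). The 9 heart markers summed to 1.54 to 4.40 CPM in ethanol livers, against 7.58 to 8.69 CPM in 6 dpf fasted livers, and nppa was at 0 in both ethanol libraries. Fed livers held 6.41 to 8.95 CPM of these markers, against 1.51 to 9.23 CPM in 7 dpf fasted livers, with nppa at 0 in both fed libraries. Of the 9 markers 1 rose and 0 fell in that comparison, and myl7 was at 5.68 and 6.83 CPM, against 0.797 and 2.97 CPM. The part of heart transcripts in the ethanol and fed rises was not tested either.

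The paralogue atp2a2b (ENSDARG00000005122) was the more heavily counted SERCA2 gene in every library. It had 403 and 414 CPM at 4 dpf, 164 and 145 CPM at 5 dpf, 149.6 and 154 CPM at 6 dpf fasted, and 100.3 and 124 CPM at 7 dpf fasted. Ethanol livers had 388 and 377 CPM, against 149.6 and 154 CPM in 6 dpf fasted livers, a 2.52-fold rise (1.33 ± 0.12, adjusted p = 7.48e-08). Fed livers had 403 and 440.3 CPM, against 100.3 and 124 CPM in 7 dpf fasted livers, a 3.76-fold rise (1.91 ± 0.12, adjusted p = 2.41e-10). The groups separated into a low tier (5 dpf, 6 dpf fasted, GCaMP and 7 dpf fasted) and a high tier (4 dpf, ethanol, fed and ventral). No low library exceeded 164 CPM, and no high library was under 377 CPM. It fell by 1.40 ± 0.12 at 5 dpf against 4 dpf (adjusted p = 8.27e-08). The paralogues resemble each other in sequence and ambiguous read handling is not given in the sources used here, so how their counts are split is uncertain.

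Of the entry genes, stim1a (ENSDARG00000060723), the ER calcium sensor, had 24.8 and 22.9 CPM in ethanol livers, against 14.4 and 16.5 CPM in 6 dpf fasted livers (0.62 ± 0.17, adjusted p = 0.00613). Fed livers had 19.7 and 23.6 CPM, against 13.7 and 11.4 CPM in 7 dpf fasted livers (0.79 ± 0.17, adjusted p = 0.000696). Neither group overlapped its fasted reference, but both differences were under 2-fold and so were not called. The gene stayed between 10.03 and 16.52 CPM in the 4 dpf, 5 dpf and fasted wild type groups. Fed livers exceeded the 10.03 and 11.89 CPM of 5 dpf livers by 0.98 ± 0.17 (adjusted p = 0.000183), just under 2-fold, and DESeq2 called that difference at 1.01. It also passed 2-fold without fed replicate 1 (1.14) or without 5 dpf replicate 2 (1.11).

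The channel gene orai1b (ENSDARG00000004154) was scarce, at 1.002 to 4.466 CPM, with 21 to 127 counts in a library. It had 3.11 and 4.47 CPM in ethanol livers, against 2.02 and 1.94 CPM in 6 dpf fasted livers (0.93 ± 0.39, adjusted p = 0.0689), under 2-fold. Fed livers had 3.42 and 3.01 CPM, against 2.17 and 1.95 CPM in 7 dpf fasted livers (0.64 ± 0.39, 95% interval -0.19 to 1.46). The 2 GCaMP libraries, at 1.002 and 2.907 CPM, bracketed the fasted wild type libraries. None of the 9 comparisons called orai1b, and its standard error was 0.38 to 0.41 in each of them. The ethanol difference passed 2-fold without ethanol replicate 1 (1.18). Scaled by library size alone, orai1b was called with ethanol (1.38) and in 7 dpf fasted against 4 dpf (-1.19).

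The uniporter pore gene mcu (ENSDARG00000101175) and its calcium-sensing regulator micu2 (ENSDARG00000009939) lay on opposite sides of the fasted level with ethanol. The mcu gene had 5.04 and 5.10 CPM in ethanol livers, against 6.57 and 8.90 CPM in 6 dpf fasted livers (-0.61 ± 0.23, adjusted p = 0.0463). The micu2 gene had 23.5 and 21.0 CPM in ethanol livers, against 17.8 and 17.0 CPM in 6 dpf fasted livers (0.36 ± 0.16, adjusted p = 0.0918). Neither reached 2-fold. In fed livers micu2 had 29.3 and 28.8 CPM, against 13.7 and 19.6 CPM in 7 dpf fasted livers (0.81 ± 0.16, adjusted p = 0.000355), again under 2-fold but at 1.09 without 7 dpf fasted replicate 2. The mcu level in fed livers, 5.57 and 5.82 CPM, against 4.38 and 4.41 CPM in 7 dpf fasted livers, differed by 0.37 ± 0.24 (adjusted p = 0.205). Both 7 dpf fasted libraries of mcu lay below every other library, and its difference from 6 dpf fasted was -0.81 ± 0.24 (adjusted p = 0.0283). The micu2 gene was highest in ventral livers, at 32.5 and 31.9 CPM.

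**Figure D2:**
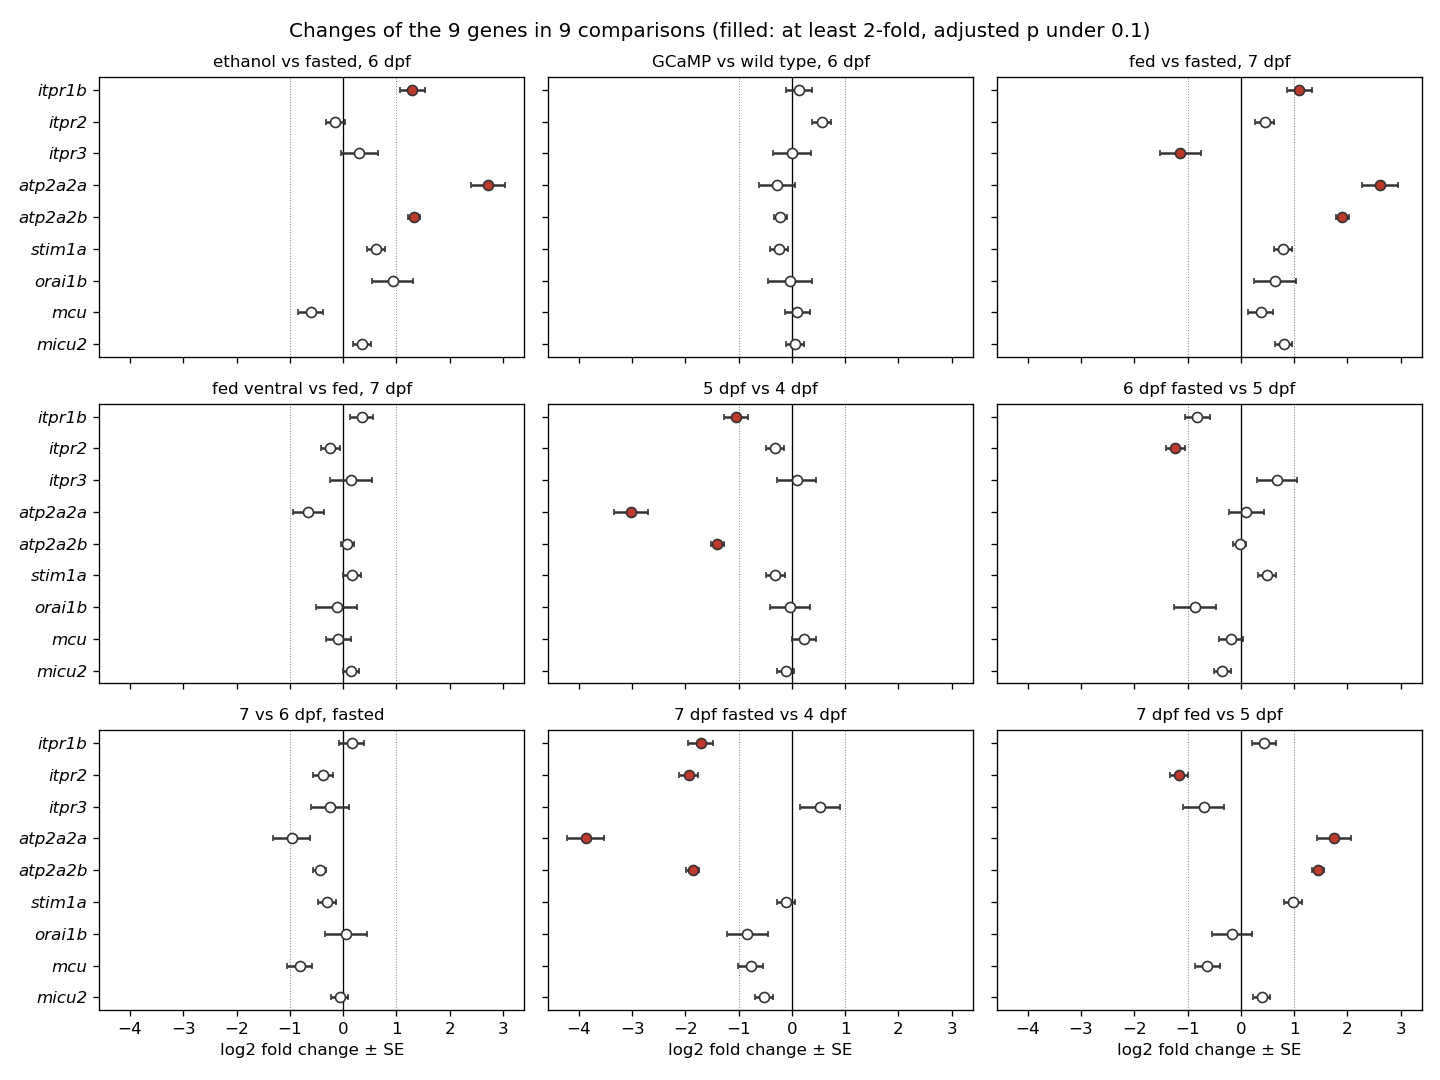
Log2 fold change of each of the 9 genes in each comparison, with bars of ± standard error. Filled points passed an adjusted p under 0.1 and a 2-fold difference. The atp2a2a and atp2a2b points lie to the right in the ethanol and fed comparisons (2.72 and 1.33, 2.61 and 1.91) and to the left in 5 dpf against 4 dpf (-3.01 and -1.40).

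With ethanol at 6 dpf 3 of the 9 genes rose (itpr1b, atp2a2a and atp2a2b) and 0 fell, where 11.8% of all tested genes rose, 11.1% fell and 23% were called in either direction. At any fold 7 of 9 passed the adjusted p, against 44.4% of all genes, and 8 of 9 did not overlap between groups, against 70% of all genes. The median difference over the 9 genes was 0.62, against 0.00 over all genes. Scaled by library size alone, without TMM, 5 of 9 rose, with stim1a at 1.08 and orai1b at 1.38. Over all 17799 genes 5203 were then called, against 4089 with TMM. That scaling moved the median of all genes to 0.45 and the share of called genes that were higher to 80.0%, against 51.6%. Markers of other cell types changed too: of skin markers 9 of 9 fell, with a summed level of 349.6 to 424 CPM in ethanol livers, against 3773 to 4803 CPM in 6 dpf fasted livers, and of exocrine pancreas markers 10 of 10 fell, with 70.1 to 762 CPM, against 2427 to 3258 CPM. Of 14 hepatocyte markers 7 fell and 2 rose, with 47492 to 52578 CPM in ethanol livers, against 75392 to 81525 CPM in 6 dpf fasted livers. Of 8 biliary markers 3 rose and 0 fell, with 2738 to 2947 CPM, against 2578 to 2639 CPM, and a list median of 0.82. Of 6 intestine markers 2 fell and 0 rose, with 265 to 374 CPM, against 791 to 989 CPM. The part of all these markers in the ethanol changes of the 9 genes was not tested.

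Around the members, 12 lists of calcium handling genes, chosen from general knowledge with earlier results of these data known, held 137 other tested genes. With ethanol 31 of these rose and 8 fell, 28.5% in all, where 11.8% of all tested genes rose, 11.1% fell and 23% were called. The ER calcium binding chaperones gave 12 of the rises among 18 tested genes, with 0 falls and a list median of 1.39. Among them calr3b, a calreticulin, had 342 and 312 CPM in ethanol livers, against 30.6 and 31.8 CPM in 6 dpf fasted livers (3.39 ± 0.16), and hsp90b1, the ER member of the Hsp90 family, 580 and 506 CPM, against 99.7 and 129 CPM (2.25 ± 0.15). Of 10 IP3 receptor partners 3 rose and 0 fell, and ahcyl1, whose mammalian counterpart binds IP3 receptors and competes with IP3, had 35.2 and 39.2 CPM in ethanol livers, against 4.96 and 4.91 CPM (2.91 ± 0.25). Among 6 other store entry genes, stim2b (1.65 ± 0.45) and orai2 (2.84 ± 0.76) rose and 0 fell. The orai2 gene was scarce, at 2.64 and 2.29 CPM in ethanol livers, against 0.276 and 0.409 CPM in 6 dpf fasted livers. Among 11 receptors that mobilize calcium 3 rose and 0 fell, and they included the angiotensin receptor gene agtr1b (2.28 ± 0.33) and the alpha-1 adrenergic gene adra1aa (1.26 ± 0.18). Of 15 genes that form or break down IP3, plcd1b (-2.30 ± 0.39) and plcd3a (-1.05 ± 0.26) fell and plcg2 (1.05 ± 0.23) rose. The uniporter subunit gene smdt1b fell, at 19.04 and 18.99 CPM in ethanol livers, against 41.4 and 35.6 CPM in 6 dpf fasted livers (-1.02 ± 0.17). The paralogue itpr1a, with 11.2 and 9.85 CPM in ethanol livers, against 16.5 and 19.3 CPM, differed by -0.76 ± 0.17 (adjusted p = 0.00178) and was not called, whereas itpr1b rose.

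In fed livers at 7 dpf itpr1b, atp2a2a and atp2a2b rose and itpr3 fell, 4 of 9 genes, where 37.5% of all tested genes were called, 20.7% higher and 16.8% lower. All 9 genes had fed and fasted libraries that did not overlap, against 74.8% of all genes, and 7 of 9 passed the adjusted p at any fold, against 57.4%. The median difference over the 9 genes was 0.79, against -0.00358 over all genes. The fed and ethanol comparisons share no library, though they share the estimate of spread. Markers of other cell types changed here too: 8 of 8 red blood cell markers rose, with 464 to 550.4 CPM in fed livers, against 6.26 to 18.7 CPM in 7 dpf fasted livers, and 7 of 8 endothelial markers fell, with 192 to 207 CPM, against 747 to 941 CPM. Of 9 skin markers 4 fell and 1 rose, with 129 to 181 CPM in fed livers, against 911 to 918 CPM in 7 dpf fasted livers. Of 10 exocrine pancreas markers 3 fell and 0 rose, with 1609 to 2007 CPM, against 5174 to 9846 CPM. Of 6 intestine markers 2 rose and 1 fell, with 2054 to 2099 CPM, against 583 to 595 CPM. Most of that sum was apoa4b.1, at 2015 and 1854 CPM, against 562 and 505 CPM. The fabp2 gene was at 74.97 and 113 CPM, against 14.17 and 10.25 CPM. Replicates of a group differed in vil1, at 2.84 and 57.5 CPM, against 5.49 and 40.9 CPM, and in slc15a1b. Of 6 macrophage and leukocyte markers 4 rose and 0 fell, with 46.2 to 48.5 CPM, against 4.00 to 21.3 CPM. The 14 hepatocyte markers summed to 109390 to 128908 CPM in fed livers, against 59013 to 64772 CPM, with 2 rises, 2 falls and a list median of -0.045. Most of that gap was tfa, at 45940 and 40130 CPM, against 7964 and 7828 CPM. The apoa2, cp, apobb.1, fga and fgb genes were also higher in fed livers without overlap. The fabp10a, gc, ttr, ces2a and hamp genes were lower without overlap, and serpina1, fgg and cpn1 overlapped. The part of all these markers in the changes of the 9 genes was not tested.

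Of the 137 listed genes, 30 rose and 27 fell in fed livers (41.6%). Over all tested genes 37.5% were called in that comparison, 20.7% higher and 16.8% lower. All 15 called ER chaperones of 18 tested rose, with a median of 1.93, and calr3b had 457 and 598 CPM in fed livers, against 23.7 and 22.0 CPM in 7 dpf fasted livers. Of 6 other store entry genes stim1b rose, with 42.5 and 37.7 CPM in fed livers, against 11.7 and 11.0 CPM (1.81 ± 0.16), as did stimate (1.18 ± 0.32). Of 14 plasma membrane channels 6 fell and 0 rose, and trpm7 had 27.1 and 24.8 CPM in fed livers, against 59.7 and 45.8 CPM (-1.03 ± 0.14). Of 11 receptors 5 fell and 2 rose. The adra1d gene (-3.03 ± 0.30), the vasopressin receptor gene avpr1aa (-2.18 ± 0.34) and the glucagon receptor gene gcgra (-1.37 ± 0.13) fell. The rises were p2ry1 (3.89 ± 1.24), scarce even in fed livers at 1.68 and 1.38 CPM, and adra1aa (1.03 ± 0.17). IP3 formation and breakdown genes included 5 falls and 1 rise among 15, with plcd1b at -2.44 ± 0.41 and the IP3 kinase gene itpkcb at -2.33 ± 0.32, while itpkca rose by 1.45 ± 0.18. The anti-apoptotic gene bcl2l1, whose product binds IP3 receptors in mammals, fell to 18.5 and 20.4 CPM in fed livers, against 75.4 and 92.6 CPM in 7 dpf fasted livers (-2.11 ± 0.13).

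**Figure D3:**
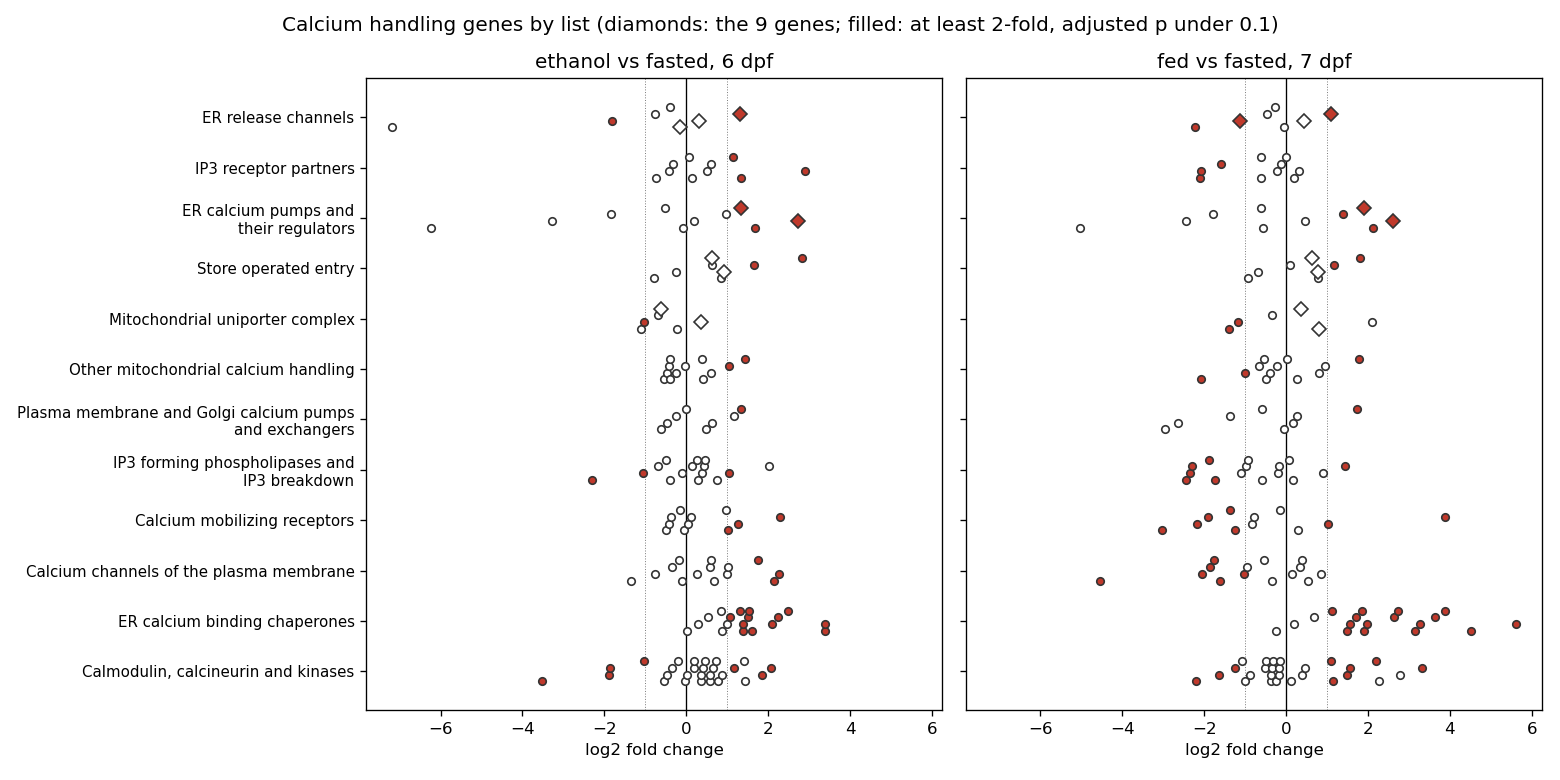
Log2 fold change of every tested gene of the 12 calcium handling lists in the ethanol and fed comparisons, with 1 point for each gene, diamonds for the 9 genes and filled symbols for those past 2-fold and an adjusted p under 0.1. The ER chaperones hold the densest run of filled points on the right in both panels, 12 with ethanol and 15 with feeding.

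Neither the reporter nor the ventral groups gave a call among the 9. GCaMP livers against fasted wild type gave 0 of 9 by edgeR, 0 by DESeq2 and 1 (itpr2) at an unadjusted p under 0.05, where 0.961% of all genes were called and 14.3% had an unadjusted p under 0.05; 3 of 9 did not overlap, against 44.3% of all genes. Exocrine pancreas markers were at 7776 to 8118 CPM in GCaMP livers, against 2427 to 3258 CPM in fasted wild type, with 0 of 10 called. Of the 137 listed genes 0 were called by edgeR, 1 by DESeq2, and 18 had an unadjusted p under 0.05. Ventral against fed livers likewise gave 0 of 9 by edgeR and DESeq2 and 1 (atp2a2a) at an unadjusted p under 0.05, where 1.16% of all genes were called and 12.6% had an unadjusted p under 0.05, and 4 of 9 did not overlap, against 41.1%. The widest 95% intervals among the 9 in these comparisons belonged to orai1b, -0.89 to 0.82 for GCaMP, and to itpr3, -0.68 to 0.97 for ventral.

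With age and fasting, itpr1b, atp2a2a and atp2a2b fell between 4 and 5 dpf, 3 of 9 genes, where 7.42% of all genes fell and 14.9% were called. In that step 5 of 9 did not overlap, against 65.2%; by library size alone the share of called genes that were higher dropped to 17.9%, against 50.1%, as the median of all genes moved to -0.34. The itpr1b fall, -1.05 ± 0.23 (adjusted p = 0.00148), was under 2-fold without 4 dpf replicate 2 (-0.95) or without 5 dpf replicate 2 (-0.83). Between 5 dpf and 6 dpf fasted, itpr2 alone fell, 1 of 9 where 10.2% of all genes fell and 18.2% were called, and 6 of 9 did not overlap, against 66.2%. At any fold 3 of 9 passed the adjusted p, against 37.7% of all genes. In that step itpr1b (-0.82 ± 0.24) passed 2-fold without 5 dpf replicate 2 (-1.05) or 6 dpf fasted replicate 2 (-1.28). From 6 to 7 dpf fasted, 0 of 9 were called by edgeR and DESeq2, where 6.81% of all genes were, and 3 of 9, against 27.1% of all genes, had an unadjusted p under 0.05: atp2a2a (-0.97 ± 0.35), atp2a2b (-0.44 ± 0.12) and mcu (-0.81 ± 0.24). These 3 of 9 also passed the adjusted p at any fold, against 19.3% of all genes, and 5 of 9 did not overlap, against 54.2%; atp2a2a passed 2-fold without 7 dpf fasted replicate 2 (-1.34) and mcu without 6 dpf fasted replicate 1 (-1.02). Over the whole span to 7 dpf fasted, itpr1b (-1.71 ± 0.23), itpr2 (-1.94 ± 0.18), atp2a2a (-3.87 ± 0.34) and atp2a2b (-1.87 ± 0.12) were lower than at 4 dpf and 0 rose, 4 of 9 where 20.3% of all genes fell and 39.1% were called, and 7 of 9 did not overlap, against 76.8%. At any fold 7 of 9 passed, against 59% of all genes. Without 4 dpf replicate 1 mcu fell too (-1.02), and without 7 dpf fasted replicate 1 itpr3 rose (1.04). Library size alone put 32.0% of called genes higher there, against 48.0%, with the median of all genes at -0.33.

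Markers of other cell types changed in these steps as well. Beside the counts that follow, 14.9% of all genes were called at 5 dpf against 4 dpf, 50.1% of these higher. At 6 dpf fasted against 5 dpf 18.2% were called, 43.9% of these higher. At 7 against 6 dpf fasted 6.81% were called, 39.4% of these higher. At 7 dpf fasted against 4 dpf 39.1% were called, 48.0% of these higher. At 5 dpf against 4 dpf, 4 of 9 skin markers rose, with 286 to 655 CPM, against 78.99 to 92.6 CPM, as did 3 of 10 exocrine pancreas markers, with 1177 to 2249 CPM, against 314 to 332 CPM. In the same step 5 of 8 red blood cell markers rose, with 165 to 211 CPM, against 32.2 to 51.5 CPM, and 3 of 14 hepatocyte markers, with 134429 to 139021 CPM, against 88071 to 98871 CPM. At 6 dpf fasted against 5 dpf, 5 of 9 skin markers rose, with 3773 to 4803 CPM, against 286 to 655 CPM, and 7 of 8 red blood cell markers fell, with 27.8 to 52.4 CPM, against 165 to 211 CPM. The hepatocyte markers then stood at 75392 to 81525 CPM, against 134429 to 139021 CPM, with 1 of 14 called lower and a list median of -0.31. The tfa gene was at 14840 and 13190 CPM, against 41950 and 44290 CPM. At 7 dpf fasted 5 of 9 skin markers fell against 6 dpf fasted, with 911 to 918 CPM, against 3773 to 4803 CPM. Against 4 dpf, 10 of 10 exocrine pancreas markers rose by then, with 5174 to 9846 CPM, against 314 to 332 CPM, and 7 of 8 endothelial markers, with 747 to 941 CPM, against 299 to 302 CPM. Of 8 biliary markers 5 rose and 0 fell, with 3179 to 3303 CPM, against 814 to 842 CPM, and 5 of 9 skin markers rose. Of 8 red blood cell markers 5 fell and 0 rose, with 6.26 to 18.7 CPM, against 32.2 to 51.5 CPM. Of the 9 heart markers 6 fell and 0 rose. Without 4 dpf replicate 1 the atp2a2a difference over this span was -3.55. In fed livers against 5 dpf livers 5 of 8 endothelial markers fell, with 192 to 207 CPM, against 428 to 447 CPM. In that comparison 10.4% of all genes rose and 7.96% fell. Of 6 macrophage and leukocyte markers 5 rose and 0 fell, with 46.2 to 48.5 CPM, against 6.33 to 7.26 CPM. Of 8 red blood cell markers 5 rose and 0 fell, with 464 to 550 CPM, against 165 to 211 CPM. Of 14 hepatocyte markers 5 fell and 0 rose, with 109390 to 128908 CPM, against 134429 to 139021 CPM, and 3 of 9 skin markers fell. The part of all these markers in the changes of the 9 genes across these steps was not tested.

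Fed livers at 7 dpf against 5 dpf livers had atp2a2a (1.75 ± 0.32) and atp2a2b (1.45 ± 0.12) higher and itpr2 lower, 3 of 9 where 10.4% of all genes rose, 7.96% fell and 18.4% were called, and 8 of 9 did not overlap, against 65.8%. At any fold 6 of 9 passed, against 38.3% of all genes. By library size alone 76.1% of called genes were higher, against 56.7%, the median of all genes moved to 0.22, and itpr2 was at -0.89. Among the listed genes of these steps, 13 of 18 ER chaperones fell at 5 dpf against 4 dpf, where 7.42% of all genes fell. At 6 dpf fasted against 5 dpf 9 fell, where 10.2% of all genes fell. In fed livers against 5 dpf livers 12 rose, where 10.4% of all genes rose. The paralogue itpr1a fell at 6 dpf fasted, with 16.5 and 19.3 CPM, against 47.1 and 47.8 CPM at 5 dpf (-1.41 ± 0.17), as did stim1b, with 22.8 and 23.6 CPM, against 69.96 and 64.65 CPM (-1.54 ± 0.15). The stim1b sensor gene thus fell while stim1a (0.50 ± 0.17, adjusted p = 0.0349) was not called. The adrenergic gene adra1aa fell by 2.04 ± 0.18 in that step. A fall of ryr2b, a cardiac ryanodine receptor gene, at 5 dpf rested on 4 dpf replicate 1 alone, with 11.8 CPM there and 0 in replicate 2.

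Composition within a library does not depend on scaling between libraries, but shares of counts are not per transcript length and so do not rank the genes. Of the summed counts of itpr1b, itpr2 and itpr3, itpr1b made up 42.0% and 44.4% in ethanol livers, against 19.9% and 26.8% in 6 dpf fasted livers. It made up 51.2% and 43.6% in fed livers, against 33.6% and 28.3% in 7 dpf fasted livers, and 57.3% and 54.9% in ventral livers. The itpr2 share was lower with ethanol, at 33.8% and 35.5%, against 54.4% and 50.1%. At 4 dpf itpr2 held 62.4% and 58.1% and itpr3 6.05% and 5.15%. The paralogue itpr1a, at 51.0 and 57.8 CPM at 4 dpf, is left out of these sums. The atp2a2a share of the SERCA2 counts was 7.18% (95% exact binomial interval 6.77 to 7.60) and 8.26% (7.77 to 8.78) in ethanol livers, against 2.78% (2.25 to 3.39) and 3.40% (2.79 to 4.09) in 6 dpf fasted livers. In fed livers it was 3.11% (2.74 to 3.52) and 3.75% (3.41 to 4.12), against 1.86% (1.351 to 2.5004) and 2.42% (1.85 to 3.10) in 7 dpf fasted livers. The 4 dpf libraries, at 9.89% (9.37 to 10.4) and 6.40% (5.96 to 6.85), differed beyond counting error, and replicate 1 is the library richest in heart transcripts. The ratio of micu2 to mcu counts was 4.66 and 4.11 in ethanol livers, against 2.71 and 1.91 in 6 dpf fasted livers, and 5.26 and 4.95 in fed livers, against 3.12 and 4.44 in 7 dpf fasted livers. With 2 libraries against 2 an exact permutation test cannot go below 0.33, so none was run on these shares, and intervals cover counting error only. The intervals treat every count as independent, so they are too narrow if pairs were counted per mate.

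**Figure D4:**
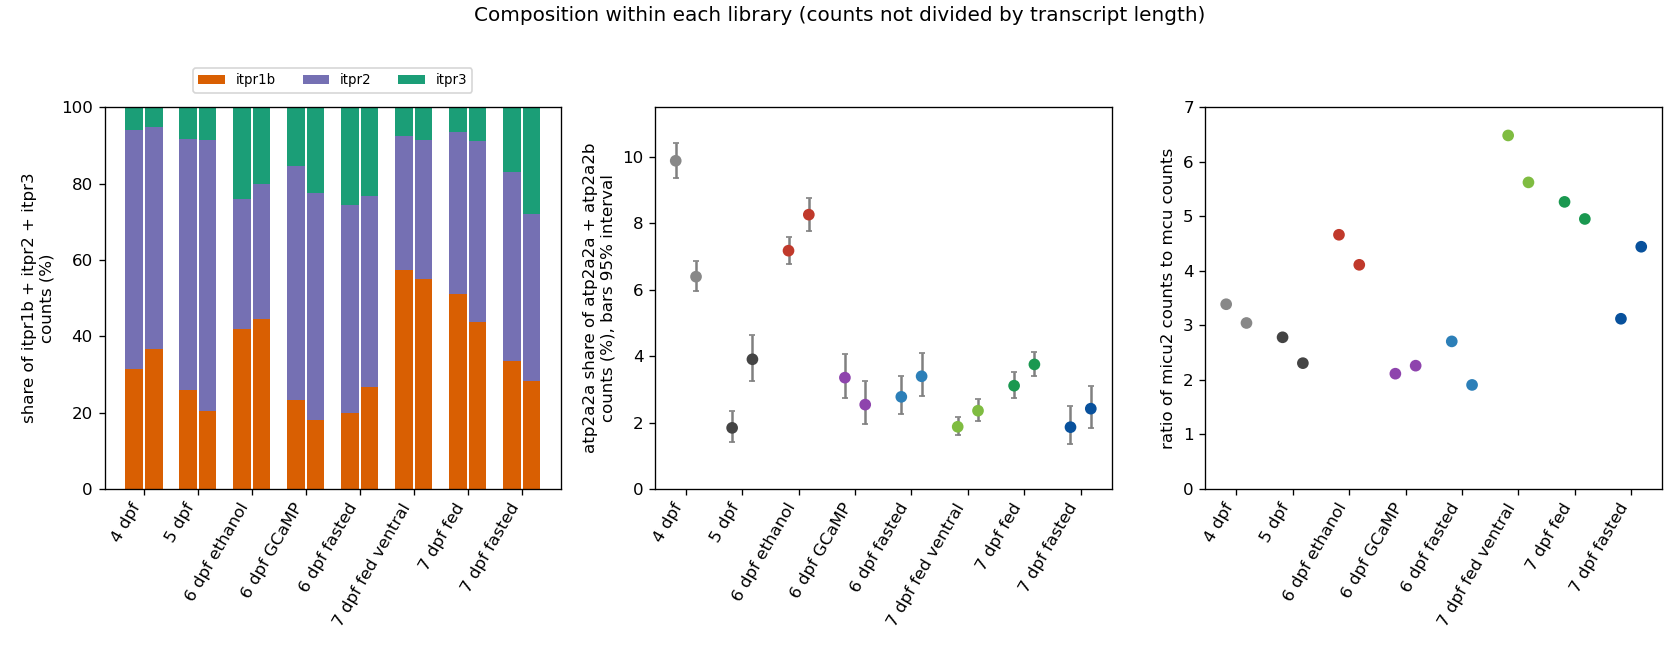
Share of the summed itpr1b, itpr2 and itpr3 counts by gene in each library (left, %), with itpr1a left out. The middle panel gives the atp2a2a share of SERCA2 counts with exact 95% intervals (%), and the right panel the ratio of micu2 to mcu counts. The itpr1b bars are tallest in ventral livers, at 57.3% and 54.9%, and shortest in 5 dpf, GCaMP and 6 dpf fasted livers.

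Across the 8 group means of log2 CPM, which share libraries and scaling, the genes most alike each member were found by Pearson correlation among 17788 tested genes with a name. They were hspa5 (r = 0.990), hspa14 and ergic3 for atp2a2a, and polr2h (0.997), tars1 and tmed9 for atp2a2b. For itpr1b they were atp6v0d1 (0.993), smyd2b and ap1m1, and for stim1a they included dpm2 (0.993) and ift74. For micu2 they included TXN (0.989) and dbi. For itpr2 they were FO834850.1 (0.991), c1galt1b and cdh23, and for itpr3 dsc2l (0.990), ccdc137 and arl3a. For orai1b they were BX248108.1 (0.978), coq8ab and kti12, and for mcu rasl11b (0.970), btr25 and si:dkey-16m19.1. With 8 points, many genes reach high values, so these are a description. Among the 9 genes themselves the closest pair was itpr1b with atp2a2b (0.919), then atp2a2a with atp2a2b (0.878) and atp2a2b with micu2 (0.868), and the most opposed was itpr3 with micu2 (-0.766).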

How the data were processed

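Per the series design text, livers of 30 larvae per library were dissected, libraries were made with a directional kit and sequenced as read pairs. HISAT2 was used to align to GRCz11 and featureCounts to count, per the submitters' processing notes, with versions, strand setting and annotation release not given in the sources used here. What the authors deposited are unscaled counts for each gene. No annotation of that build was used here, so no positions or sequences are given. Even numbers made up 70.3% to 77.8% of the counts from 1 to 50, and 50.9% to 56.2% of the counts above 1000, so pairs may have been counted per mate; counts were also tested halved.

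The test was edgeR 4.0.16 (under R 4.3.3), the robust quasi-likelihood F test with TMM scaling and the default filter by group, in 1 model of 16 libraries and 8 groups with 8 residual degrees of freedom. The fold change and false discovery limits are those of the series design text. Each standard error is the size of the log2 fold change over the root of its F statistic. Alternatives, including DESeq2 1.42.0, are given at the end. The test was also checked on simulated counts with equal numbers of rises and falls in the ethanol group. That check does not bear on the choice of scaling between libraries. A floor of 3 counts is 0.0826 to 0.165 CPM. Same-numbered replicates did not deviate together, so they were not treated as pairs. Members and lists were chosen with earlier results of these data known. Named were all 9 genes, EGFP, the 2 most changed called genes in each direction and the most abundant of each list (fewer are printed), and the 3 genes most like each member (2 of these are not reported here); nppa and the heart markers were chosen after their values were seen.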

Additional observations from a re-analysis of the deposited data

Results flagged for a closer look

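EGFP, which is not part of the tested comparisons, had 38 counts in each of the 2 wild type libraries of the 6 dpf fasted group (1.75 and 1.94 CPM), above the 0 counts of the other 12 libraries without the reporter. The GCaMP libraries had 136106 and 43968 counts (6492 and 2412 CPM).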

How the results depend on the processing

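Of 81 member differences (9 genes in 9 comparisons) 18 were called; 13 of them stayed called under every alternative run, 5 were lost under at least 1, and 0 changed sign. Without the 2-fold limit the members called were 7 with ethanol (44.4% of all genes), 7 for fed (57.4%), 3 for 6 dpf fasted against 5 dpf (37.7%), 3 for 7 against 6 dpf fasted (19.3%), 7 for 7 dpf fasted against 4 dpf (59%) and 6 for fed against 5 dpf (38.3%). By library size alone 5 were called with ethanol (5203 of all 17799 genes, against 4089 in the main run). For 7 dpf fasted against 4 dpf 6 were called (7144 of all genes, against 6953), and for fed 3 (6694, against 6673). For fed against 5 dpf that scaling also gave 3 (3514 of all genes, against 3272), with stim1a called (1.25) and itpr2 not called (-0.89). Leaving out each library in turn gave 2 to 4 members with ethanol, 3 to 4 for fed, 2 to 3 for 5 against 4 dpf, 1 to 2 for 6 dpf fasted against 5 dpf, 0 to 1 for 7 against 6 dpf fasted, 4 to 5 for 7 dpf fasted against 4 dpf and 3 to 4 for fed against 5 dpf; in the GCaMP and ventral comparisons it gave 0. How many of all genes were called in these runs was not recorded. A lone library left in a group is assumed to vary like the other groups. The cause of these shifts was not tested. Fitting the replicate number as a block (28 pairs of groups, correlations of deviations -0.241 to 0.210) changed no count of members called, such as 3 with ethanol and 4 for fed. The other alternatives (RLE scaling, no filter, halved counts, a stricter adjusted p of 0.05, only the libraries compared, DESeq2) kept every member count within 1.5 times.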

Other observations

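Of 27 calmodulin, calcineurin and kinase genes 3 rose and 4 fell with ethanol, where 23% of all genes were called, and 6 rose and 3 fell in fed livers, where 37.5% were called, so these counts are near the share over all genes. The kinase gene camkk1b had 69.9 and 73.2 CPM in ethanol livers, against 20.53 and 18.97 CPM in 6 dpf fasted livers, and 92.2 and 76.7 CPM in fed livers, against 5.80 and 11.1 CPM in 7 dpf fasted livers. The calmodulin gene calm3b rose by 1.17 ± 0.12 with ethanol and by 1.497 ± 0.122 in fed livers. In fed livers rcan2, a calcineurin regulator, rose by 2.21 ± 0.28, while nfatc1, a transcription factor that calcineurin activates, was at -2.21 ± 0.40 and crtc2, a CREB coactivator, at -1.63 ± 0.15, both falls.

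Beside the counts that follow, 11.8% of all genes rose and 11.1% fell with ethanol, and 20.7% rose and 16.8% fell in fed livers. Of 12 other mitochondrial calcium genes 2 rose and 0 fell with ethanol (slc8b1, the mitochondrial sodium-calcium exchanger, by 1.43 ± 0.37 and pacs2 by 1.06 ± 0.37). In fed livers 1 rose (pacs2, 1.79 ± 0.39) and 2 fell (rmdn3, -2.08 ± 0.23, and letm1, -1.01 ± 0.15). Of 8 plasma membrane and Golgi pumps and exchangers 1 rose with ethanol (atp2c1, the Golgi calcium pump, 1.34 ± 0.16) and 1 in fed livers (atp2b1a, a plasma membrane pump, 1.74 ± 0.18). Of 14 plasma membrane channels 3 rose and 0 fell with ethanol, pkd2 (2.15 ± 0.27) and tmem63a (2.26 ± 0.31) among them. The ER channel gene tmco1, on the list of 8 other ER pumps and regulators, rose by 1.68 ± 0.18 with ethanol and by 2.13 ± 0.19 in fed livers. Of the 4 other uniporter genes, smdt1b (-1.17 ± 0.17) and micu3b (-1.39 ± 0.63) fell in fed livers. Of the 4 other ER release channels ryr3 fell in both comparisons, at 0.441 and 0.281 CPM in ethanol livers, against 1.29 and 1.28 CPM in 6 dpf fasted livers, and 0.315 and 0.814 CPM in fed livers, against 2.92 and 2.46 CPM in 7 dpf fasted livers.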
